A study of Rattus norvegicus with 16 samples.

Results

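The 10 genes of the Wnt pathway followed here are the secreted Wnt-binding proteins Sfrp1, Sfrp2, Frzb, Sfrp4 and Wif1, the Dickkopf genes Dkk2 and Dkk3, the coreceptors Lrp5 and Lrp6, and Axin2. A probe set (the group of short probes with which this array reads a transcript) was a member if the platform annotation gave it exactly 1 of these symbols. This gave 19 of the 31042 probe sets of the array that are not controls, covering all 10 genes, and 0 probe sets shared a member symbol with another gene. Of the 19, 14 reached 300 in mean signal and were tested, and 5 were too dim for a test.

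The arrays measured RNA of rat levator ani satellite cells (LASCs), the resident stem cells of an androgen-responsive pelvic muscle, cultured to passage 5. Cells received either NARA, a nonsteroidal agonist of the androgen receptor, at 10 nM, or vehicle, 0.2% DMSO, for 4 h or 48 h. All groups were treated in medium with 10% charcoal-stripped serum, which is depleted of steroids. The strain, age and number of animals and the identity of the agonist beyond its class were not given in the sources used here. The labels call the replicates biological but name no culture or animal of origin, and the p-values cover no more than the spread among these arrays, which may be technical.

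Of 16 arrays, 4 per group, the authors left out 3 as outliers. These were vehicle 48 h replicate 1 and, of NARA 4 h, replicates 1 and 4. The 13 used here were 2 NARA 4 h, 4 vehicle 4 h, 4 NARA 48 h and 3 vehicle 48 h. They correlated with each other at 0.930 to 0.956 on the log2 scale, across probe sets that are not independent. The left-out NARA 4 h arrays correlated with them at 0.645 to 0.673. In those 2 arrays the summed signal of 11 liver genes was 1539375 and 1904035, against 3674 to 4572 in vehicle 4 h. Marker signals did not settle the cell type. Of 15 markers of satellite cells and myoblasts, 12 had a probe set and 11 were above the minimum signal, among them Myog, Cdh15 and Des. Myod1 was below it, with a mean signal of 83.9. Myog, Cdh15 and Des had 1117, 1275 and 774, and the brightest of this list was Cav1, at 59127. No probe set was annotated to Pax7, Pax3 or Myf5, so these were not measured. Of 12 fibroblast markers, 11 were above the minimum, among them Col1a1 and Col3a1, with mean signals of 72121 and 114150. Above the minimum too were 6 of 11 liver and 3 of 4 endothelial markers on the array, so passing it does not tell cell types apart. The brightest liver marker in the kept arrays, Serpina1, had a mean signal of 891. In such bulk samples, fewer cells of a type and less RNA per cell cannot be told apart.

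Wnt proteins are secreted growth factors that bind a Frizzled receptor together with the coreceptor Lrp5 or Lrp6 and so stabilise beta-catenin, which switches on target genes with TCF and LEF factors. Secreted frizzled-related proteins (Sfrp1, Sfrp2, Sfrp4 and Frzb) and Wif1 bind Wnt proteins outside the cell. Dickkopf proteins such as Dkk2 bind the coreceptors, whereas Dkk3 is a divergent member of the family. Axin2 is a scaffold of the complex that destroys beta-catenin and is itself a target gene, so it serves as a common readout of the pathway. In muscle, Wnt signalling takes part in satellite cell renewal and differentiation, and also in fibrosis.

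At 48 h, Sfrp2 and Dkk3 were lower in NARA than in vehicle, by 1.49-fold and 1.503-fold in their brightest probe sets. These were 2 of the 14 tested probe sets, against 2.8% of all probe sets tested. The other tested Dkk3 probe set pointed the other way, at a log2 change of 0.59 that did not pass. Both calls were lost without vehicle 48 h replicate 2 and when only the 48 h arrays were fitted. Wif1 and the brighter Sfrp4 probe set had lower mean signals in NARA but did not pass the test, the dimmer Sfrp4 probe set had a higher one, and the coreceptors Lrp5 and Lrp6 and the readout gene Axin2 had changes near 0. At 4 h 0 of 14 passed in limma, against 0% of all. In the tested Lrp5 probe set, 1380242_at, both NARA 4 h arrays read far lower than any vehicle 4 h array, at 73.8 and 121. Both values lay under the minimum signal, which this probe set met through the other groups. The other Lrp5 probe set, 1380241_a_at, was too dim for a test. Its 4 h groups overlapped, with 36.8 and 84.1 in NARA, against 77.4 to 128 in vehicle.

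The sequences of 2 stretches are printed, from the RefSeq promoter table (build GRCr8), because Sfrp2 was the member with the smallest p at 48 h and Axin2 is the readout gene. The table held windows for 4 of the 10 members, Sfrp2, Frzb, Wif1 and Axin2. Capitals mark matches to CTTTGAT or CTTTGAA, core letters of TCF and LEF binding sites, searched on both strands, as was AGAACA, a hexamer of androgen response elements. The Sfrp2 stretch covers chr2:171387286-171387535 on the plus strand, the 250 bases before the start of the gene. The Axin2 stretch covers chr10:94398535-94398684 on the plus strand and lies inside the annotated span of the gene (chr10:94393379-94426579); the table does not say whether this is exon or intron.
Sfrp2: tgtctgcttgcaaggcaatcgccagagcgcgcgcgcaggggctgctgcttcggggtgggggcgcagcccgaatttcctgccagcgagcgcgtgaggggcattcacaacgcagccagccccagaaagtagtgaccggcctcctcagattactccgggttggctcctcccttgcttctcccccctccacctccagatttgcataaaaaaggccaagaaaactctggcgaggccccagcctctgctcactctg
Axin2: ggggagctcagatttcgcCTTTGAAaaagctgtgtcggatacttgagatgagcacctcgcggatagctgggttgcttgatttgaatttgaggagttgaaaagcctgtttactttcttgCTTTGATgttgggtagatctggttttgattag

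In the Axin2 window CTTTGAA began at -232 and CTTTGAT at -132 from the start site the table uses. Of 33469 windows of 300 bases, 5.4% held CTTTGAA and 3.63% held CTTTGAT. The windows of Sfrp2, Frzb and Wif1 held neither of them. AGAACA, present in 20.7% of all windows, was in 0 of the 4 member windows. These are descriptions of letters in short windows and say nothing of binding.

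Among the SFRP family, Sfrp2 (chr2:171387536-171395081, GRCr8, as for the positions that follow), which binds Wnt proteins and is abundant in mesenchymal cells, separated the 48 h groups most clearly. Its probe set 1390119_at had signals of 1087, 1099.8, 994 and 1054 in NARA 48 h, against 1747, 1578 and 1474 in vehicle 48 h. Every NARA array lay below every vehicle array. The log2 change was -0.57 (SE 0.0999, 95% interval -0.79 to -0.35, limma adjusted p = 0.0101), a 1.49-fold lower level. At 4 h the same probe set had 1716 and 1676 in NARA, against 1509, 1817, 1543 and 1615 in vehicle, with a log2 change of 0.07 (95% interval -0.18 to 0.32, limma adjusted p = 1.00). The difference between the 48 h and 4 h effects was -0.64 (SE 0.151, unadjusted p = 0.00132) and did not pass over all probe sets (limma adjusted p = 0.184). The dimmer Sfrp2 probe set, 1396614_at, had 295, 181, 161 and 122 in NARA 48 h, against 673, 666 and 211 in vehicle 48 h. It pointed the same way, at -1.15 (95% interval -2.36 to 0.07, limma adjusted p = 0.347), but vehicle replicate 4 fell among the NARA arrays. All its NARA 48 h signals lay under the minimum signal, which this probe set met through the other groups (mean over 13 arrays 373). The size of its change is therefore uncertain. The call of the brighter probe set was lost without vehicle 48 h replicate 2 (log2 change -0.51, limma adjusted p = 0.0504) and when just the 48 h arrays were fitted (limma adjusted p = 0.0847).

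**Figure D1:**
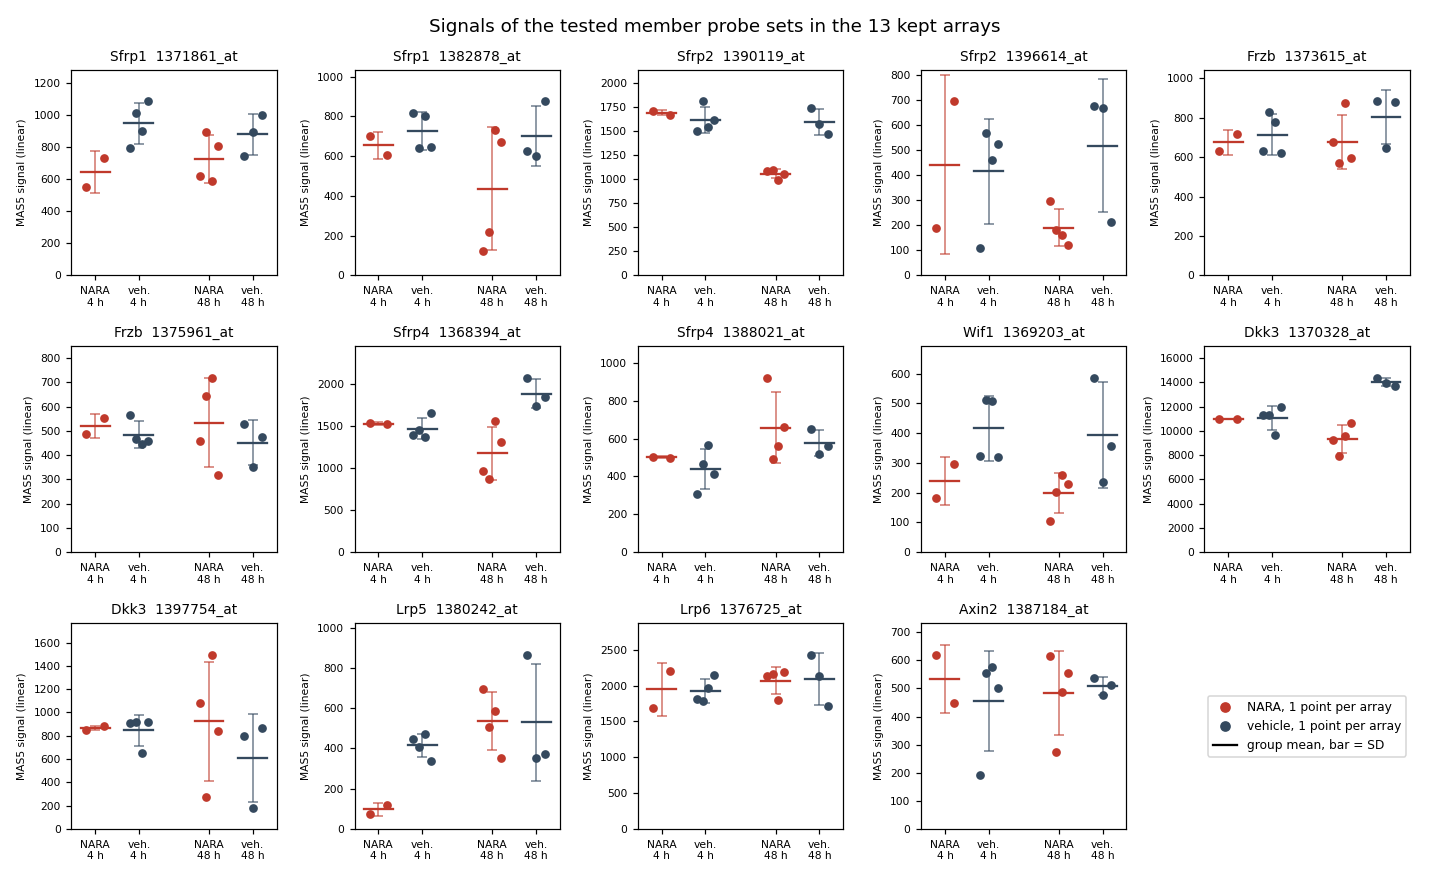
Signal of each of the 14 tested member probe sets in the 13 kept arrays (linear MAS5 signal, axes from 0). Points are arrays, horizontal lines group means and bars the SD, with NARA left of vehicle at each time. Sfrp2 1390119_at and Dkk3 1370328_at show every NARA 48 h array below every vehicle 48 h array, and Lrp5 1380242_at shows both NARA 4 h arrays at 121 or less.

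Sfrp4 (chr17:49974532-50026448), another secreted Wnt-binding protein, was read by a pair of probe sets that pointed in opposite directions at 48 h. The brighter, 1368394_at, had 969, 875, 1565 and 1309 in NARA 48 h, against 2076, 1740.4 and 1844 in vehicle 48 h, without overlap. The log2 change was -0.69 (SE 0.175, 95% interval -1.07 to -0.30), just short of the threshold (limma adjusted p = 0.0651). At 4 h the change of this probe set was 0.06 (95% interval -0.38 to 0.50). Vehicle itself was higher at 48 h than at 4 h without overlap, by 0.35 (95% interval -0.04 to 0.73). Within NARA the 48 h against 4 h difference was -0.40 (95% interval -0.84 to 0.04). Neither time difference passed (limma adjusted p = 0.697 and 0.480). The dimmer, 1388021_at, had 920.3, 490.3, 560.4 and 659.7 in NARA 48 h, against 649.8, 518 and 562 in vehicle 48 h, which overlapped, with a log2 change of 0.15 (95% interval -0.32 to 0.61). An exact two-sided permutation test of the per-array difference between these probe sets gave a difference of changes of -0.83 (p = 0.0571, the smallest p that 4 against 3 arrays allow, and 0.286 after Benjamini-Hochberg adjustment over 5 such pairs). The brighter probe set passed without NARA 48 h replicate 3 (log2 change -0.83, limma adjusted p = 0.0193) and with vehicle 48 h replicate 1 put back (-0.67, limma adjusted p = 0.0359).

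Sfrp1 (chr16:75278325-75316736) and Frzb (chr3:85739162-85772168), the remaining SFRP genes, did not pass in any probe set. For Sfrp1, the probe set 1382878_at fell into separate levels among the NARA 48 h arrays, 124 and 217 against 729 and 672, while vehicle 48 h had 627, 601 and 877. Its log2 change of -0.88 had a 95% interval of -1.85 to 0.09 (limma adjusted p = 0.364). The Sfrp1 probe set 1371861_at lay at -0.27 at 48 h (95% interval -0.65 to 0.12). At 4 h it had 550.0 and 735 in NARA, against 792, 1010.1, 904 and 1088 in vehicle, a log2 change of -0.53 (unadjusted p = 0.0217, limma adjusted p = 0.948). The third Sfrp1 probe set, 1383266_at, was below the minimum, with 136, 204, 37.9 and 178 in NARA 48 h, against 261, 271 and 253 in vehicle 48 h. All 3 Sfrp1 probe sets thus had lower mean signals in NARA than in vehicle at 48 h, and none of these differences was past the threshold or, for the dim one, tested. The Frzb probe sets lay at -0.23 (95% interval -0.61 to 0.14) and 0.18 (95% interval -0.32 to 0.69) at 48 h.

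Wif1 (chr7:58433326-58503853), which binds Wnt proteins through a domain unlike that of the SFRP family, had a single probe set near the minimum signal. It read 104, 201, 259.6 and 231 in NARA 48 h, against 586, 237 and 357 in vehicle 48 h. The groups overlapped through vehicle replicate 3, and the log2 change was -0.80 (SE 0.311, unadjusted p = 0.0249, limma adjusted p = 0.224). At 4 h it read 182 and 295 in NARA, against 323, 511, 509.6 and 319.5 in vehicle, without overlap, with a log2 change of -0.69 (95% interval -1.46 to 0.09, limma adjusted p = 1.00). Neither difference passed. Both NARA means, 239 at 4 h and 199 at 48 h, were under the minimum of 300, which Wif1 met through the vehicle arrays (mean over 13 arrays 317).

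Dkk3 (chr1:175672834-175715867), a secreted glycoprotein of the Dickkopf family, had 4 probe sets. The brightest, 1370328_at, had 9225, 7936, 9576 and 10694 in NARA 48 h, against 14378, 13979 and 13697 in vehicle 48 h. All NARA arrays lay below all vehicle arrays, with a log2 change of -0.59 (SE 0.116, 95% interval -0.84 to -0.33, limma adjusted p = 0.0198). At 4 h it had 10995 and 10973 in NARA, against 11316, 11351, 9667 and 11949 in vehicle, a log2 change of -0.01 (95% interval -0.30 to 0.28). The 48 h effect minus the 4 h effect was -0.58 (SE 0.175, unadjusted p = 0.00656, limma adjusted p = 0.356). Vehicle itself was higher at 48 h than at 4 h without overlap, by 0.34 (95% interval 0.09 to 0.60), which did not pass (limma adjusted p = 0.579). The second tested probe set, 1397754_at, had 1084, 276, 1496 and 838 in NARA 48 h, against 796, 179 and 865 in vehicle 48 h, with a log2 change of 0.59 (95% interval -0.59 to 1.76). Its arrays spread widely within each 48 h group, and the difference from the brightest probe set was -1.18 (exact permutation p = 0.229). The other two, 1394655_at and 1377468_at, had mean signals of 60.3 and 68.9 over 13 arrays and were not tested. Without vehicle 48 h replicate 2 or replicate 3 the call of the brightest probe set was lost (limma adjusted p = 0.0769 and 0.0730). It was also lost with no signal minimum (limma adjusted p = 0.0541) and with only the 48 h groups (0.114).

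Dkk2 (chr2:223242375-223334249), an inhibitor that binds the coreceptors, was not tested. Its only probe set read 24.4, 13.6, 12.8 and 52.3 in NARA 48 h, against 114, 46.1 and 48.3 in vehicle 48 h. At 4 h it read 210.1 and 126 in NARA, against 8.59, 106, 44.7 and 118 in vehicle. All these values lie under the minimum of 300.

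Of the coreceptors, Lrp5 (chr1:210243499-210346886) showed the widest separation at 4 h. Its probe set 1380242_at had 73.8 and 121 in NARA 4 h, against 446, 406, 472 and 338 in vehicle 4 h. The log2 difference was -1.67 (SE 0.328, 95% interval -2.39 to -0.95), the rank of its p was 19 of 20904, and it did not pass (limma adjusted p = 0.286). At 48 h the same probe set had 694, 506, 586 and 353.5 in NARA, against 866, 354 and 372 in vehicle, a log2 change of 0.08 (95% interval -0.55 to 0.72). Within NARA it was higher at 48 h than at 4 h by 1.97 (SE 0.328, limma adjusted p = 0.0218), while the difference between the NARA effects at both times, 1.75 (SE 0.437, unadjusted p = 0.00192), did not pass (limma adjusted p = 0.222). The size of the 48 h against 4 h difference within NARA depends on the offset, at 2.44 with an offset of 1 and 1.29 with 200. The NARA 4 h signals are under the minimum of 300, which the probe set met through the other groups (mean over 13 arrays 429.8), so the size of this difference is uncertain. It rests on the 2 NARA 4 h arrays, and the call was lost without either of them (limma adjusted p = 0.190 and 0.0575) and without NARA 48 h replicate 3 (0.0598). The other Lrp5 probe set, 1380241_a_at, read 36.8 and 84.1 in NARA 4 h, against 84.1, 77.4, 128 and 84.3 in vehicle 4 h, all below the minimum.

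Lrp6 (chr4:168997937-169131716), the other coreceptor, varied little. It had 2135, 2161, 1793 and 2189.5 in NARA 48 h, against 2429, 2130.2 and 1710.5 in vehicle 48 h. The log2 change was -0.0040 at 48 h (95% interval -0.32 to 0.31) and 0.0041 at 4 h (95% interval -0.35 to 0.36).

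Axin2 (chr10:94393379-94426579), the readout gene, had 614, 272, 488 and 556 in NARA 48 h, against 537, 476 and 513 in vehicle 48 h. The log2 change was -0.12 (95% interval -0.84 to 0.60) at 48 h and 0.28 (95% interval -0.54 to 1.10) at 4 h. The 48 h interval holds both 0 and changes as large as those of Sfrp2 and Dkk3, so these arrays do not tell whether Axin2 changed by that much.

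**Figure D2:**
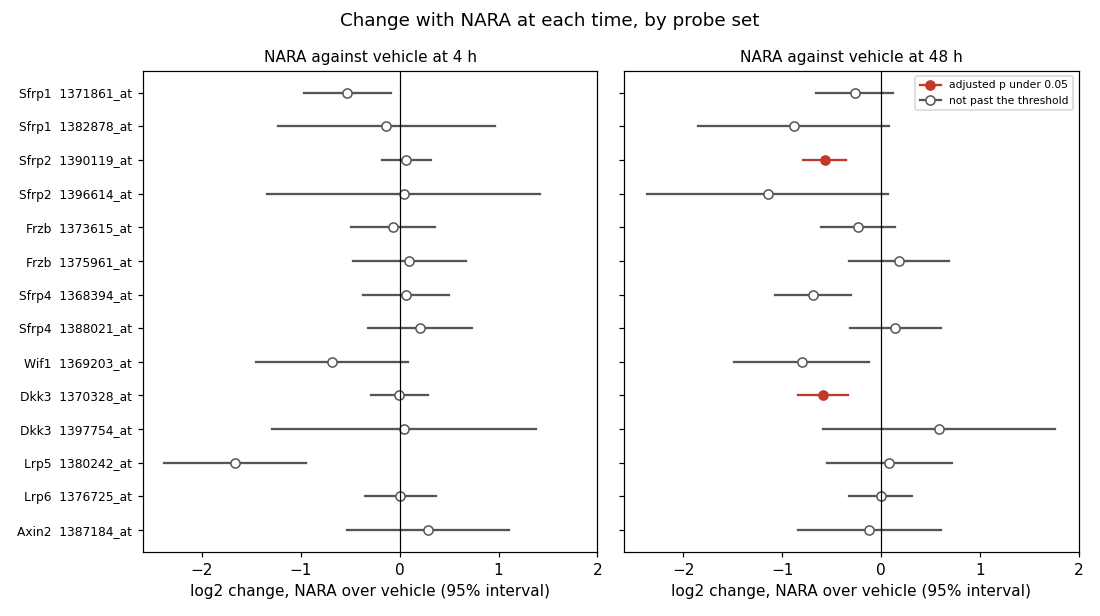
Log2 change of NARA over vehicle for each of the 14 tested member probe sets at 4 h (left panel) and 48 h (right panel), with 95% intervals from limma on the log2(signal + 50) scale. Filled red points passed at an adjusted p under 0.05, which were 0 at 4 h and 2 at 48 h, Sfrp2 1390119_at (-0.57) and Dkk3 1370328_at (-0.59).

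Counted over the set, 2 of 14 tested probe sets passed at 48 h, 0 higher and 2 lower, where 2.8% of all 20904 probe sets passed, 1.36% as higher and 1.44% as lower. With an unadjusted p under 0.05 there were 4, all lower, against 8.38% of all probe sets. Of the 14, 10 had a negative log2 change, against 50.5% of all, and their median was -0.25, against -0.0037 for all. In 3 the groups did not overlap, with NARA lower in each, against 7.53% of all. At 4 h, 0 of 14 passed in limma and 0% of all did. With an unadjusted p under 0.05 there were 2 members, both lower (Lrp5 and Sfrp1), against 2.69% of all as lower, and the median was 0.02. In 3 members the 4 h groups did not overlap, Sfrp1 1371861_at, Wif1 and Lrp5, all lower in NARA, against 6.96% of all. For the difference of effects, 0 of 14 passed in limma, against 0.124% of all, and 4 had an unadjusted p under 0.05, against 9% of all. In vehicle, 48 h against 4 h, 0 members passed and 1 had an unadjusted p under 0.05, against 0% and 7.35% of all, and 2 were higher at 48 h without overlap, Sfrp4 1368394_at and Dkk3 1370328_at, against 4.28% of all. In NARA, 48 h against 4 h, 2 passed, Lrp5 higher by 1.97 and Sfrp2 lower, at -0.66 (limma adjusted p = 0.0253), against 0.785% of all, 0.488% as higher and 0.297% as lower. These comparisons share arrays, so their counts are not independent of each other, nor are the probe sets of 1 gene. Wif1, Lrp5 1380242_at and Sfrp2 1396614_at had a NARA group mean under the minimum and were tested through the other groups, so the counts are given as a description.

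Among the other Wnt pathway genes, those that passed at 48 h, Fzd8, Fzd1 and Ccn4, were all lower in NARA than in vehicle. The list held 97 symbols, older names included, of which 73 had a probe set and 60 were tested by their brightest one. Of these, 0 rose and 3 fell at 48 h, against 2.8% of all probe sets, and the median was -0.11. The list was written with earlier results of these data known, and its counts are a description.

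The receptor genes that fell were Fzd8 and Fzd1, both Frizzled receptors of Wnt proteins. Fzd8 had 3896, 4406, 4218 and 4361 in NARA 48 h, against 7654, 6695 and 5990.3 in vehicle 48 h, without overlap, a log2 change of -0.67 (SE 0.130, limma adjusted p = 0.0183). At 4 h it had 4466 and 5313 in NARA, against 6163, 6780.5, 5265 and 7093 in vehicle, at -0.36 (limma adjusted p = 1.00). The 48 h call of Fzd8 passed in 19 of 24 alternatives. Among the fits that lost it were those without vehicle 48 h replicate 2 or replicate 3 and with only the 48 h groups. Fzd1 averaged 7453 ± 579 in NARA 48 h (SD, n = 4) and 10841 ± 1368 in vehicle 48 h (SD, n = 3), with a log2 change of -0.53 (SE 0.127, limma adjusted p = 0.0499). Its call lay at the threshold and passed in 5 of 24 alternatives. Of 9 receptor genes tested, 2 passed as lower, against 1.44% of all probe sets, and 8 had a negative log2 change, against 50.5% of all. Their median was -0.46. An unadjusted p under 0.05 was found for 6, all lower, against 8.38% of all probe sets. The other four of these, Fzd4, Fzd6, Ryk and Lrp4, did not pass and were named after their values had been seen.

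Ccn4, a secreted matricellular protein and a known Wnt target, had 2828, 2906, 1964 and 2662 in NARA 48 h, against 4321, 3864 and 3851 in vehicle 48 h. The groups did not overlap, and the log2 change was -0.64 (SE 0.138, limma adjusted p = 0.0313). At 4 h it had 3190.1 and 3062 in NARA, against 4565, 4100.0, 4018 and 3734 in vehicle, also without overlap, at -0.38 (limma adjusted p = 1.00). The 48 h call of Ccn4 passed in 17 of 24 alternatives. Among the fits that lost it were those without vehicle 48 h replicate 2, 3 or 4 and with only the 48 h groups. Of 13 target genes tested, Ccn4 was the only one past the threshold at 48 h, 5 had an unadjusted p under 0.05, all lower, against 8.38% of all probe sets, and the median was -0.20. The 8 ligand genes had a median of -0.01 and the 10 other secreted modulators 0.04, with 0 past the threshold in limma and 1 and 2 at an unadjusted p under 0.05. The 24 cytoplasmic and nuclear components had a median of -0.05, 0 past the threshold in limma and 2 at an unadjusted p under 0.05. In these 3 classes all genes with such a p were lower, to be read against the same 8.38%.

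None of the tested list genes passed at 4 h in limma (0 of 60), and 6 had an unadjusted p under 0.05, 1 higher and 5 lower, where 2.69% of all probe sets had one as lower. The lower genes with the smallest p were Wnt1 at -0.47, Ccn4 and Fzd8. The higher ones were Lef1, a transcription factor of the pathway, at 0.41 (limma adjusted p = 1.00), Wnt7a at 0.69 and Tcf7l2 at 0.26. At 48 h the higher genes with the smallest p were Sostdc1, a secreted inhibitor, at 0.57, Dvl3 at 0.60 and Tcf7l2 at 0.16. None was past the threshold. The other tested Tcf7l2 probe sets disagreed in direction at 48 h, at 0.08, 0.42, -0.21 and -0.48, and did not pass. In the same arrays Igf1, a muscle growth factor, rose 2.99-fold to 3.66-fold over its 3 probe sets at 48 h, and Fkbp5, a known androgen receptor target, 3.49-fold to 4.67-fold over its 2.

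**Figure D3:**
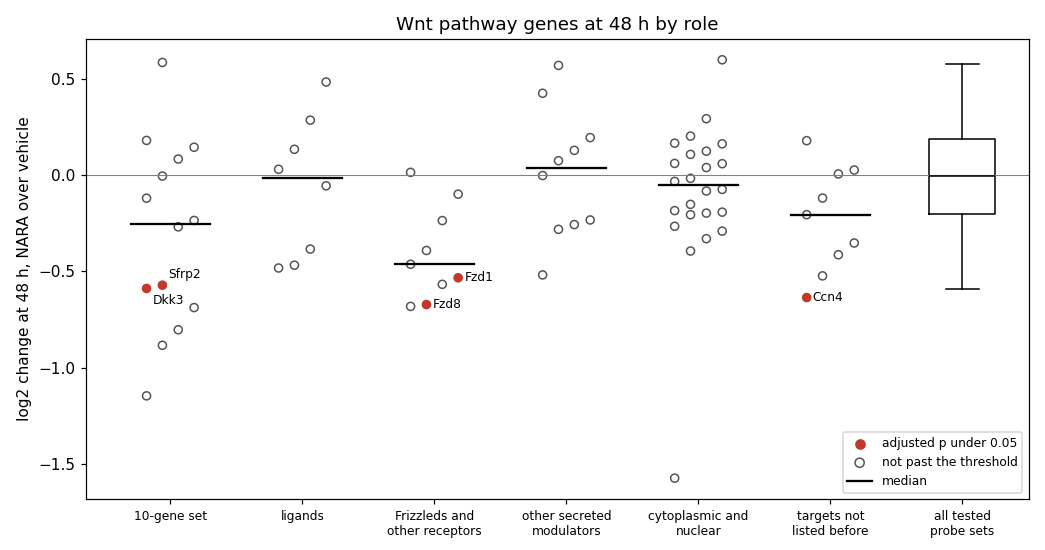
Log2 change of NARA over vehicle at 48 h for the 14 member probe sets and for the 60 other Wnt pathway genes (1 probe set each, a gene with several roles shown once), by role, beside all 20904 tested probe sets (box with quartiles and median, whiskers at the 5th and 95th percentiles). Filled points passed at an adjusted p under 0.05, all of them below 0, and horizontal lines are medians, -0.25 for the members and -0.46 for the receptors.

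Across the 13 arrays, the genes whose pattern was most like that of Sfrp2 1390119_at, of 11285 compared by their brightest probe set, were Fam171a1 (Pearson r = 0.961), the proteoglycan gene Lum (r = 0.9499) and the BMP antagonist gene Grem1 (r = 0.947). For Dkk3 1370328_at they were Olfml2a (r = 0.943), Lrch3 (r = 0.924) and Txnip (r = 0.904). The 13 arrays share their 4 groups, so these values are descriptions. Of the 6 genes, all but Txnip (limma adjusted p = 0.0684) were also lower in NARA at 48 h past the threshold. They were picked for likeness to probe sets called lower in these same arrays, so this follows largely from the choice.

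Marker lists of cell types were compared between the same 48 h arrays. The summed signal of 12 satellite cell and myoblast markers was 69506 to 77518 in NARA 48 h and 78234 to 85907 in vehicle 48 h, without overlap, and 2 of 11 tested fell, Cxcr4 at -3.02 and Sdc4 at -0.72. Most of that sum is Cav1, with a mean signal of 59127 and a log2 change of -0.03, and other markers had positive changes that did not pass, among them Itga7 at 0.95 and Ncam1 at 0.63. That of 5 smooth muscle and pericyte markers was 8901 to 13001 in NARA 48 h and 13513 to 15662 in vehicle 48 h, also without overlap, with 0 of 5 past the threshold in limma. Tagln and Acta2 carry most of it, at -0.62 and -0.33, while Cnn1 lay at 0.53 and Rgs5 at 0.11. The 12 fibroblast markers summed to 396625 to 495397 in NARA 48 h and 387955 to 477937 in vehicle 48 h, which overlapped. Of 11 tested, 2 fell, Lum and Pdgfra. The counts of markers that fell are to be read against 1.44% of all tested probe sets called lower at 48 h. Among single probe sets, 7.53% were lower in NARA at 48 h without overlap, and no such share was computed for sums. No marker gene on the array had a mean signal of 0. The part of these markers in the lower signals of Sfrp2, Dkk3, Fzd8 and Ccn4 was not tested.

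**Figure D4:**
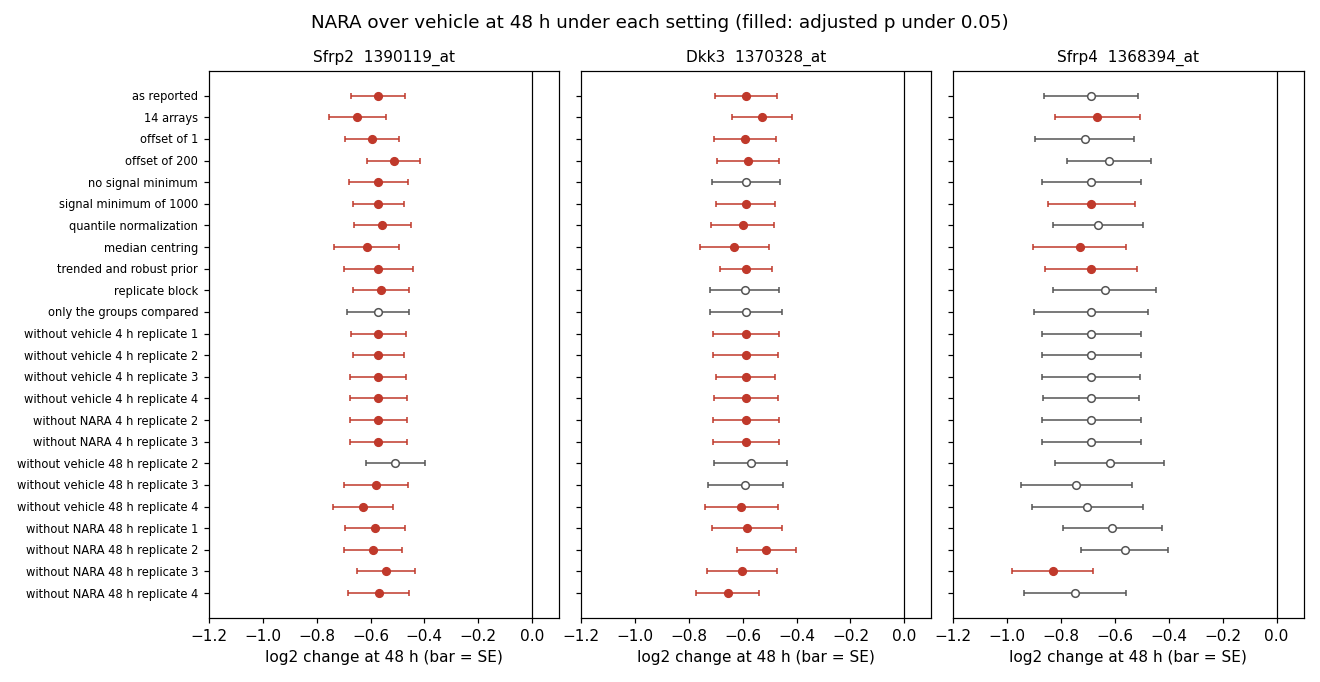
Log2 change at 48 h, NARA over vehicle, of Sfrp2 1390119_at, Dkk3 1370328_at and Sfrp4 1368394_at as reported and under the alternative settings, with SE bars; the fit of all 16 arrays is not drawn. Every estimate drawn lies below 0, and filled points passed at an adjusted p under 0.05, 21 of 24 alternatives for Sfrp2, 18 for Dkk3 and 5 for Sfrp4 when the fit of all 16 arrays, which passed for none, is counted.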

How the data were processed

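RNA (5 µg per sample) was labelled with biotin and hybridised to Affymetrix Rat Genome 230 2.0 arrays, 1 array per sample, per the labels' protocols. The deposited intensity values are MAS5 signals on a linear scale, which the authors scaled to a trimmed mean of 1500 per array, per the series' design text. The extraction is given as Trizol in the labels and as a column kit in the design text. Detection calls were not used here, and the number of arrays limits the precision.

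Of 31099 probe sets, 57 controls were set aside. Gene names came from the platform annotation, which gave 20826 probe sets 1 symbol, 436 several and 9780 none. All 10 member genes were found in the RefSeq gene table (GRCr8), which gave their positions. Signals were transformed as log2(signal + 50), so changes of dim probe sets are understated. Probe sets with a mean of at least 300 over the 13 arrays (20904) were fitted with limma 3.58.1 in R 4.3.3, with 4 group means, 9 residual and 2.4 prior degrees of freedom. P-values are two-sided, adjusted by Benjamini-Hochberg over all tested probe sets, with a threshold of 0.05. Each member probe set is given on its own, and other genes by their brightest. Exact permutation tests used scipy 1.17.1. The fit was tested on simulated data.

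The members, gene lists and tests were chosen with earlier results of these data known. Named were all members, pathway genes past the threshold, the 3 higher and 3 lower of smallest p at each time, the 3 genes most like each called member, Igf1 and Fkbp5.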

Additional observations from a re-analysis of the deposited data

Results flagged for a closer look

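In 4 of 38 sets of 4 arrays (19 probe sets in vehicle 4 h and NARA 48 h), 1 array stood apart from the other three by Dixon's criterion, where chance gives about 1 in 20. For Lrp6, NARA 48 h replicate 3 was low, at 1793. In vehicle 4 h, Frzb 1375961_at was high in replicate 1, at 567, Dkk3 1397754_at was low in replicate 3, at 651, and Lrp5 1380241_a_at was high in replicate 3, at 128. None of these is a probe set past the threshold.

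For 2 probe sets, both left-out NARA 4 h arrays were more than 2-fold above the highest vehicle 4 h array. Axin2 had 3484.5 and 2191 in NARA 4 h replicates 1 and 4, against 194 to 576 in vehicle 4 h. Lrp5 1380242_at had 1411 and 1282 in them, against 338 to 472 in vehicle 4 h. These arrays carry liver genes at high levels, as given above. The kept NARA 4 h arrays had 620.0 and 448 for Axin2 and 73.8 and 121 for Lrp5.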

How the results depend on the processing

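For the member probe sets, Fzd1, Fzd8 and Ccn4, the results for which alternatives were run, no called result changed its direction. Of the counts past the threshold, the member count at 48 h was 2, and it fell to 0 when all 16 arrays were fitted, was 1 when no minimum signal was set, 1 with the replicate block, 0 with only the groups compared, and 0 to 3 when 1 replicate was left out (0 without vehicle 48 h replicate 2, 1 without vehicle 48 h replicate 3 and 3 without NARA 48 h replicate 3). The member count for 48 h against 4 h in NARA was 2, and it was 0 with all 16 arrays, 1 with no minimum, 1 with a minimum of 1000, 1 with median centring, 0 with the replicate block, 0 with only the groups compared, and 0 to 2 with 1 replicate left out. The Wnt pathway count at 48 h, whose alternatives were added after seeing the data, was 3, and it was 0 with all 16 arrays, 1 with no minimum, 5 with a minimum of 1000, 6 with a trended prior, 1 with the replicate block, 0 with only the groups compared, and 0 to 3 with 1 replicate left out. Over all probe sets, the 48 h count of 586 was 39 with all 16 arrays, 355 with no minimum, 1069 with a minimum of 1000, 1098 with the trended prior, 312 with the replicate block, 217 with only the groups compared and 310 to 527 with 1 replicate left out. The 4 h count of 0 was 1 with all 16 arrays, 2 with a minimum of 1000, 3 with median centring, 9 with the trended prior, 4 with only the groups compared and 0 to 19 with 1 replicate left out. The count of 26 for the difference of effects was 60 with 14 arrays, 0 with all 16, 46 with an offset of 200, 11 with no minimum, 93 with a minimum of 1000, 126 with the trended prior, 0 with the replicate block and 1 to 32 with 1 replicate left out. The vehicle time count of 0 was 0 to 2 with 1 replicate left out. The NARA time count of 164 was 27 with all 16 arrays, 79 with no minimum, 325 with a minimum of 1000, 106 with median centring, 372 with the trended prior, 51 with the replicate block, 13 with only the groups compared and 69 to 152 with 1 replicate left out. The cause of these shifts was not tested. Same-numbered replicates did not deviate together (16 pairs, r from -0.0364 to 0.0387, 0 over 0.1), so the block is given only here. Fitting only the groups compared gives no value for the difference of effects, which needs all 4 groups. The 5 dim member probe sets were tested only in the fit with no minimum, which covered all 19.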
